A study of Homo sapiens with 6 samples.

Results

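The nuclear-encoded subunits of the oxidative phosphorylation complexes were examined in PC3, a human cell line established from a prostate cancer, in cells carrying either a GRK3 transgene or a GFP transgene. The subunits were taken from a list of 49 genes, and the members are those with a probe on the array under that gene symbol: 42 of 49, out of 16922 named genes on the array. By complex they number 18 of 22 for complex I, 3 of 4 for complex II, 6 of 7 for complex III, 10 of 10 for complex IV and 5 of 6 for complex V. NDUFA2, NDUFA4, NDUFA6, NDUFB9, SDHB, UQCRFS1 and ATP5MC3 have no probe named here, so their expression was not analysed here. None of the 13 subunits encoded in mitochondrial DNA has a named probe, so these too were not analysed here.

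Total RNA was labelled with biotin and hybridized to 6 arrays of the Illumina Ref-8 version 3 BeadChip type. Of these, 3 held RNA from cells expressing GFP (the control) and 3 from cells expressing GRK3. GRK3 phosphorylates G protein-coupled receptors once they are active, and the series asks which genes it regulates. The culture medium of both groups was RPMI with fetal bovine serum and antibiotics. The labels name neither the promoter of the transgenes nor whether a line is a pool or a clone. They also do not say whether arrays of the same group hold RNA of separate cultures, so a p-value covers only the spread between these arrays, which may be technical.

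Mean signal per array lay between 1171 and 1387 intensity units, and 56.2% to 58.6% of the 24526 probes were detected on an array (detection p under 0.05). The probe for GRK3 stayed at background throughout (detection p from 0.104 to 0.262), with normalized log2 values of 5.43, 5.34 and 5.31 in GFP cells and 5.46, 5.40 and 5.23 in GRK3 cells, so it does not check the labels. All 6 epithelial markers (EPCAM, KRT8, KRT18, KRT19, CDH1 and KRT7) were detected on all 6 arrays. Of 5 luminal prostate markers with a probe, 1, FOLH1, was detected on 3 or more arrays, and KLK3, TMPRSS2 and ACP3 on 0. Of 13 markers of other cell types with a probe, 8 were detected on 0 arrays, among them PTPRC, VWF, CDH5 and DCN, while PECAM1, LUM and COL1A1 were detected on 6, CD14 on 5 and ACTG2 on 3. LUM, a fibroblast marker near background, differed by 0.29 (limma adjusted p = 0.412). PECAM1, well above background, differed by 0.21, with all GRK3 arrays above all GFP arrays (limma adjusted p = 0.462). Of the 5 tested markers of that list, 2 had a difference above 0 and 3 below. The summed normalized intensity of that list ran from 1443 to 1595 on the GFP arrays and from 1596 to 1664 on the GRK3 arrays, with PECAM1 its brightest member, and its part in the values below was not tested.

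Oxidative phosphorylation couples the oxidation of NADH and succinate to ATP synthesis in the inner mitochondrial membrane. Complex I accepts electrons from NADH and complex II from succinate, ubiquinone carries them to complex III, cytochrome c carries them to complex IV, which reduces oxygen, and complex V uses the resulting proton gradient to make ATP. Complex II alone is wholly nuclear-encoded. The other complexes combine nuclear-encoded subunits with subunits made inside the mitochondrion, and many promoters of the nuclear genes are known to bind the factors NRF1, GABP and YY1.

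The promoters of the members were searched for short motifs of these factors, a feature that did not enter the choice of members. RefSeq promoters (GRCh38.p14) were found for 34 of the 42 members, and the 250 bases before the first-listed start of each gene were searched on both strands. The NRF1 motif, GCGCANGCG, was in 8 of 34 (23.5%), against 7.02% of the 27305 promoters of all genes. With the stricter form that ends in a further C, the one first used, it was in 6 of 34 (17.6%), against 5.53%. The GABP motif of the ETS family, CCGGAAG, was in 10 of 34 (29.4%), against 8.81% of all. The YY1 motif, AANATGGCG, was in 1 of 34, NDUFS8, against 1.40% of all. At least 1 of the 3 motifs was in 17 of 34, against 15.6% of all promoters. Matches on either strand counted alike, and a promoter with several matches counted once. The median GC content of these windows was 60.2% for the members and 58% for all promoters, and its part in the motif shares was not tested. All promoters were not limited to genes with a probe or detected in these cells, and the part of that was not tested either. A match is a description of letters and not a shown binding site, and no factor binding was measured in these cells.

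To show what such promoters look like, 1 is given per complex below, from the members described array by array. Each is the member with a match whose difference between the groups was largest. Each sequence runs 5′ to 3′ on the strand of the gene and ends at the base before the transcription start, with motif matches in capitals. The regions are chr2:206159445-206159694 on the minus strand for NDUFS1, chr11:112086623-112086872 on the plus strand for SDHD, chr5:132866392-132866641 on the plus strand for UQCRQ, chr2:97645812-97646061 on the plus strand for COX5B and chr21:33915805-33916054 on the minus strand for ATP5PO.
NDUFS1: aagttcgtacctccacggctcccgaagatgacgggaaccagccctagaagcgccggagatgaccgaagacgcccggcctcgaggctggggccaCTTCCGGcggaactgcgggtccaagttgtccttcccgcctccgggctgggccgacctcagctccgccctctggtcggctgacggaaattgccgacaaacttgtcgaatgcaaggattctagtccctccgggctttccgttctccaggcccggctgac
SDHD: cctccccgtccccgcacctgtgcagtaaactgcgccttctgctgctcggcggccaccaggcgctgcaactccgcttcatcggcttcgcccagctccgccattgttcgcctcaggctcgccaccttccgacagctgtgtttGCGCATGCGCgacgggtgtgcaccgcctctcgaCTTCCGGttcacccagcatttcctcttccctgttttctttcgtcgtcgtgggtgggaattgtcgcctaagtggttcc
UQCRQ: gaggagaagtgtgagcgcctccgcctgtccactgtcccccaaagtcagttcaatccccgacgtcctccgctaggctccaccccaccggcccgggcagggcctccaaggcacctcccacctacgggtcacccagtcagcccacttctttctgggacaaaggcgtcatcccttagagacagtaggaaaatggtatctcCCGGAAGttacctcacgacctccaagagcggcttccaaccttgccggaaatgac
COX5B: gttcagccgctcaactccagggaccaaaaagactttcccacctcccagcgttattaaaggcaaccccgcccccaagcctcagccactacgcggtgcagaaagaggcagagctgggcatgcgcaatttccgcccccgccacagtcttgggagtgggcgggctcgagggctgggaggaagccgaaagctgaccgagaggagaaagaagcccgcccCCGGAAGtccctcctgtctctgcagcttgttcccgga
ATP5PO: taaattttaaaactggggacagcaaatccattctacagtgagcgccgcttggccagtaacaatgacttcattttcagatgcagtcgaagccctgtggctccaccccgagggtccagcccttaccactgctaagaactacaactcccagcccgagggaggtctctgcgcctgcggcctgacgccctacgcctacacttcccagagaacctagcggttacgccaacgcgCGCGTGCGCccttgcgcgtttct
In SDHD overlapping NRF1 matches on the opposite strands begin 110 and 109 bases before the start and a GABP match 77 bases before it. The single matches are of GABP in NDUFS1, UQCRQ and COX5B, which begin 157, 54 and 37 bases before the start, and of NRF1 in ATP5PO, 23 bases before it.

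No oxidative phosphorylation subunit passed the test between GRK3 and GFP cells, and the differences were small. Over the 14130 probes tested with limma, 81 (0.573%) had an adjusted p under 0.05, and 0 of the 42 members did, with a lowest adjusted p of 0.431 for SDHD. Without adjustment 1 member, SDHD, had a p under 0.05, while 11.6% of all probes did. All differences subtract the GFP mean from the GRK3 mean of normalized log2 intensity, and those of the members ran from -0.09 for CYC1 to 0.39 for NDUFC2. All 42 members were detected on all 6 arrays, so none was left out by the filter on dim probes.

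On these arrays and with this normalization, the intervals around most differences were narrow. They cover only the spread between these arrays, which may be technical, and not the choice of normalization. The 95% interval lay within a 1.5-fold change in either direction for 41 of the 42 members, the exception being NDUFC2, and within 1.3-fold for 35 (83.3%), against 61.5% of all probes tested. Within 1.2-fold it lay for 18 (42.9%), against 18.9%, and these narrower bounds were set after the values were seen. The median SD within groups was 0.08 log2 for the members and 0.13 for all probes. Among the brightest 20% of tested genes, where 34 of the 42 members lay, it was 0.09. The part of brightness in the narrow intervals was not tested. For 39 of 42 members (92.9%, against 90.4% of all probes) the difference was smaller than the wider of the ranges within the GFP and GRK3 groups. The other 3 members were SDHD, UQCRQ and COX7A2.

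More members had values above 0 than below it, although none passed, and this was not tested as a set. The difference was above 0 for 35 of 42 members, against 47.7% of all probes tested, and its median was 0.05 over the members and -0.01 over all probes. Under median scaling these medians were 0.12 and 0.0016. The arrays contributed unequally. Among the GRK3 arrays, replicate 1 had the highest value for 26 of 42 members (61.9%), against 37.2% of all probes, and without it 30 of 42 were above 0 and the median was 0.04. Because a bulk array reads pooled RNA, more transcript per cell and a change in a share of the cells cannot be told apart. In a split by brightness added after the values were seen, 34 members lay among the brightest 20% of the 10586 tested genes, and over those bright genes the median difference was -0.01 with 47.3% above 0.

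**Figure D1:**
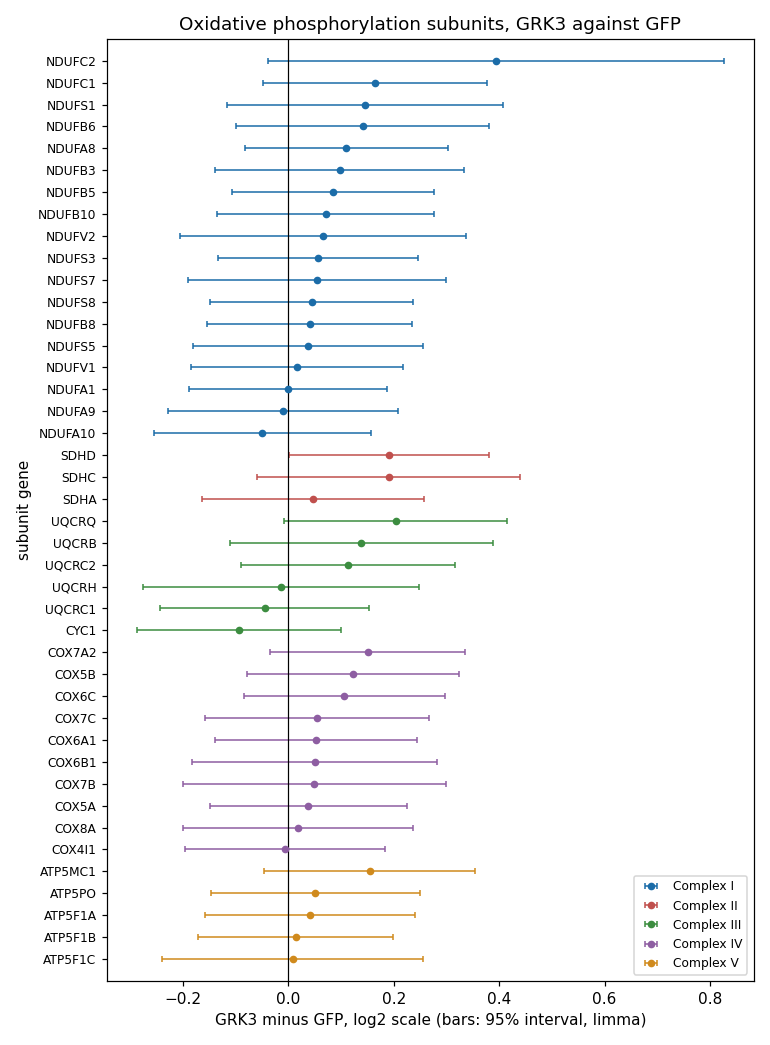
Difference between GRK3 and GFP cells for each of the 42 subunit genes, on the log2 scale (x axis), with the genes listed on the y axis and coloured by complex. Points are limma estimates from 3 arrays per group and bars their 95% intervals. Of the points, 35 lie above 0, and the interval of SDHD alone lies wholly above 0.

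The groups did not overlap for 8 of the 42 members (19.0%), all 8 with the GRK3 arrays above: NDUFA8, NDUFC1, SDHD, UQCRQ, COX5B, COX6C, COX7A2 and ATP5MC1. Over all probes tested such separation held for 16.4%, with the GRK3 arrays above for 8% and below for 8.38%. With both directions counted together the share of separated members is near that background, and in the higher direction it is above it, and all 8 have an adjusted p of 0.431 or higher.

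Complex I, which oxidizes NADH and passes electrons to ubiquinone, had 18 members, a median difference of 0.06 and 15 members above 0, and 0 of 18 passed. NDUFC2, an accessory subunit of the membrane arm, had normalized log2 values of 7.30, 6.44 and 6.62 in GFP cells and 7.17, 7.06 and 7.32 in GRK3 cells. GFP replicate 1 lay within the range of the GRK3 arrays, and the other 2 GFP arrays lay below it. Its difference was 0.39 ± 0.19 (SE), a 1.31-fold value, with a 95% interval from -0.04 to 0.83 and a limma adjusted p of 0.485. Its signal was low, with a detection p of up to 0.0227, and its difference was 0.65 without GFP replicate 1 and 0.22 without GFP replicate 2.

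NDUFC1, another accessory subunit of the membrane arm, had values of 11.29, 11.28 and 11.27 in GFP cells and 11.59, 11.41 and 11.34 in GRK3 cells. The GFP arrays nearly coincided and all GRK3 arrays lay above them, with replicate 1 the highest. The difference was 0.16 ± 0.09 (SE), with a limma adjusted p of 0.565. NDUFS1, the largest core subunit and a carrier of iron-sulphur clusters in the matrix arm, had values of 7.54, 7.60 and 7.58 in GFP cells and 7.90, 7.47 and 7.79 in GRK3 cells. GRK3 replicate 2 was the lowest of the 6 arrays for NDUFS1 and the other GRK3 arrays were the highest, so the groups overlapped (difference 0.15 ± 0.12 (SE), limma adjusted p = 0.714). Its difference was 0.055 without GRK3 replicate 1 and 0.271 without GRK3 replicate 2.

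The remaining complex I members had smaller differences. In the NADH-oxidizing module, the flavoprotein subunit NDUFV1 and the iron-sulphur subunit NDUFV2 differed by 0.02 and 0.07. In the module that reduces ubiquinone, the core subunits NDUFS3, NDUFS7 and NDUFS8 differed by 0.06, 0.05 and 0.04. The accessory subunits NDUFB3, NDUFB5, NDUFB6, NDUFB8 and NDUFB10 of the membrane arm differed by 0.10, 0.08, 0.14, 0.04 and 0.07. NDUFA8 and NDUFS5 differed by 0.11 and 0.04. NDUFA9 and NDUFA10 were the members of the complex furthest below 0, at -0.01 and -0.05, and NDUFA1 differed by -0.00052.

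Complex II, succinate dehydrogenase, is shared by the respiratory chain and the tricarboxylic acid cycle. Its 3 measured genes had a median difference of 0.19 (0.083 without GFP replicate 3), and 0 of 3 passed. SDHD, a membrane anchor of the complex encoded at chr11:112086873-112095794 (GRCh38.p14), had values of 12.25, 12.29 and 12.32 in GFP cells and 12.47, 12.42 and 12.54 in GRK3 cells. All GRK3 arrays lay above all GFP arrays, and the gap between the groups was about as wide as the range within each. The difference was 0.19 ± 0.09 (SE), a 1.14-fold value, with a 95% interval from 0.00022 to 0.38 and a limma adjusted p of 0.431.

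SDHC, the other membrane anchor, had the same fitted difference of 0.19 ± 0.11 (SE), with a limma adjusted p of 0.575. Its values were 10.55, 10.67 and 10.29 in GFP cells and 10.65, 10.66 and 10.76 in GRK3 cells. GFP replicate 3 stood lowest, and the other arrays ran from 10.55 to 10.76. Without GFP replicate 3 the difference of SDHC was 0.08. SDHA, the flavoprotein that oxidizes succinate, had values of 11.08, 11.12 and 10.95 in GFP cells and 11.04, 11.04 and 11.20 in GRK3 cells. The groups overlapped for SDHA (difference 0.05 ± 0.09 (SE), limma adjusted p = 0.908), and the difference was -0.0072 without GRK3 replicate 3 and -0.0030 without GFP replicate 3.

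Complex III, which passes electrons from ubiquinol to cytochrome c, was divided: 3 members lay above 0 and 3 below, with a median of 0.05 (-0.0039 without GRK3 replicate 1) and 0 of 6 passing. UQCRQ, a small subunit of the membrane part, had values of 14.02, 14.11 and 13.92 in GFP cells and 14.32, 14.20 and 14.14 in GRK3 cells. The groups were separate, but GFP replicate 2 and GRK3 replicate 3 lay side by side. The difference was 0.20 ± 0.09 (SE), with a 95% interval from -0.01 to 0.41 and a limma adjusted p of 0.457.

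UQCRB, a small subunit that helps form the ubiquinone site, had values of 8.93, 9.22 and 9.04 in GFP cells and 9.37, 9.15 and 9.10 in GRK3 cells, and the groups overlapped (limma adjusted p = 0.713). UQCRC2, a core protein of the matrix side, had values of 10.96, 10.98 and 10.95 in GFP cells and 11.10, 10.95 and 11.17 in GRK3 cells, where replicate 2 fell among the GFP arrays (limma adjusted p = 0.714). The other core protein gene, UQCRC1, differed by -0.04, the hinge protein gene UQCRH by -0.01 and CYC1, which encodes the haem protein cytochrome c1, by -0.09.

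Complex IV, cytochrome c oxidase, had 9 of its 10 members above 0, a median of 0.05 and 0 passing. Its nuclear-encoded subunits surround a catalytic core made in the mitochondrion. COX7A2 had values of 14.30, 14.37 and 14.34 in GFP cells and 14.50, 14.47 and 14.49 in GRK3 cells, and was among the tightest members. The groups were separate, with a difference of 0.15 ± 0.08 (SE) and a limma adjusted p of 0.543. COX5B, a zinc-binding subunit of the matrix side, had values of 13.74, 13.69 and 13.56 in GFP cells and 13.83, 13.75 and 13.78 in GRK3 cells.

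For COX5B the groups were separate by a hair, since GFP replicate 1 and GRK3 replicate 2 nearly met (difference 0.12 ± 0.09 (SE), limma adjusted p = 0.685). COX6C, a small membrane subunit, had values of 14.70, 14.63 and 14.59 in GFP cells and 14.78, 14.75 and 14.71 in GRK3 cells, again with adjoining groups (difference 0.11 ± 0.09 (SE), limma adjusted p = 0.713). COX5A, COX6A1, COX6B1, COX7B, COX7C and COX8A differed by 0.04, 0.05, 0.05, 0.05, 0.05 and 0.02. COX4I1, which encodes the ubiquitous isoform of subunit IV, was the member below 0, at -0.0069.

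Complex V, the ATP synthase, had all 5 members above 0, with a median of 0.04 and 0 passing. ATP5MC1, which encodes subunit c of the rotating membrane ring, had values of 13.41, 13.33 and 13.32 in GFP cells and 13.58, 13.41 and 13.53 in GRK3 cells. GRK3 replicate 2 lay just above the top of the GFP range and the other GRK3 arrays above it (difference 0.15 ± 0.09 (SE), limma adjusted p = 0.567). At a dimmer probe the difference of ATP5MC1 was 0.08 (limma adjusted p = 0.906).

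ATP5PO, a subunit of the stalk that holds the catalytic head, had values of 14.44, 14.58 and 14.58 in GFP cells and 14.63, 14.60 and 14.53 in GRK3 cells, with overlap (limma adjusted p = 0.887). ATP5F1A, the alpha subunit of the catalytic head, had values of 14.92, 14.90 and 14.95 in GFP cells and 14.85, 15.00 and 15.03 in GRK3 cells, with overlap (limma adjusted p = 0.916). Its other probe differed by -0.01, so the 2 probes lie on either side of 0 and both near it. ATP5F1B and ATP5F1C, the beta and gamma subunits, differed by 0.01 and 0.0078.

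**Figure D2:**
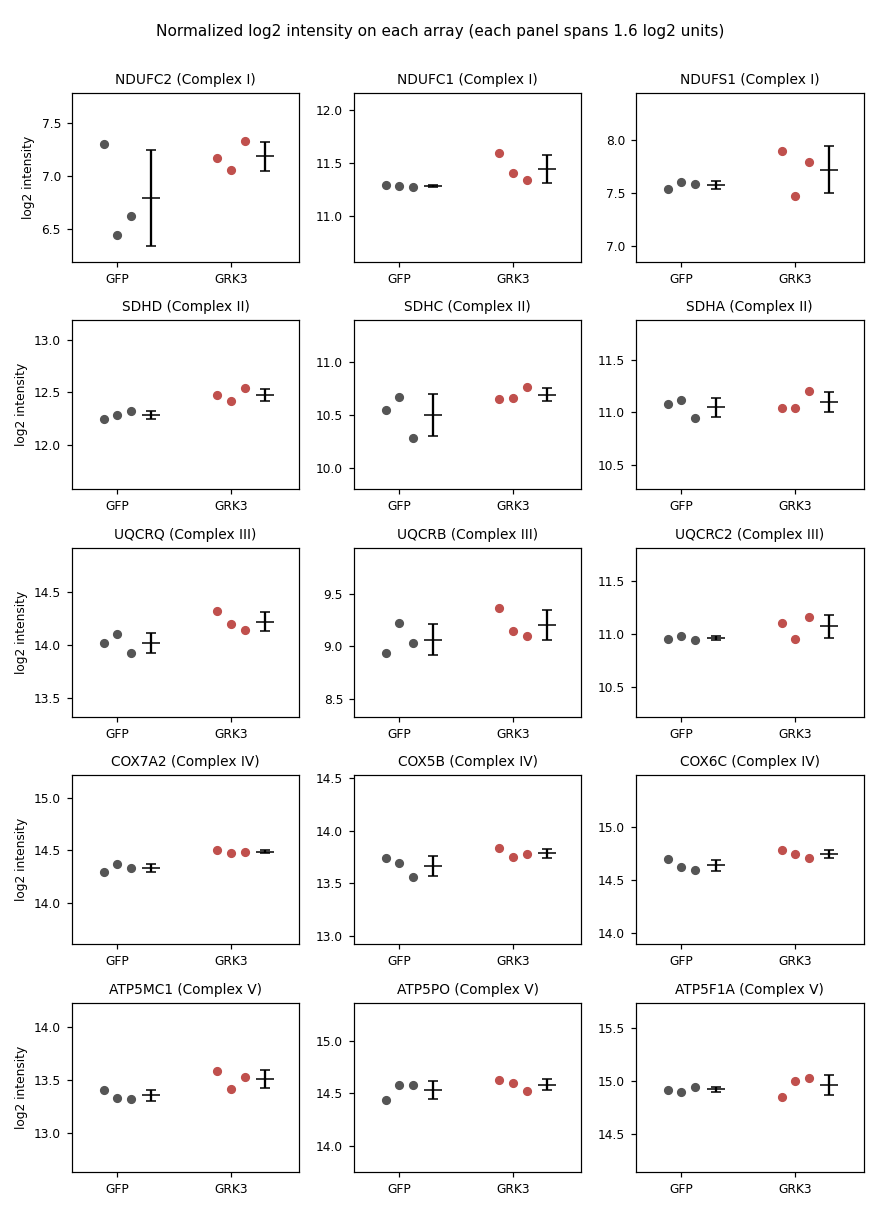
Normalized log2 intensity (y axis) on each array for the 15 members described array by array, with GFP arrays in grey and GRK3 arrays in red, replicates 1 to 3 from left to right. Bars beside the points are the mean ± SD of 3 arrays, and each panel spans the same height of the log2 scale. The groups are separate for NDUFC1, SDHD, UQCRQ, COX7A2, COX5B, COX6C and ATP5MC1 and overlap for the other 8.

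Of these 15 members, 10 had a difference that moved by over 1.5 times when some single array was left out. The other 5 were SDHD, UQCRQ, COX7A2, COX6C and ATP5MC1, where the groups were separate. The groups were also separate for NDUFC1 and COX5B, which are among the 10 that moved.

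Signals of the brightest members came close to the brightest of their arrays. ATP5F1B read between 55561 and 60006 intensity units before normalization, and the top signal of an array lay between 64183 and 66514. Whether differences of such bright probes are compressed was not tested. RefSeq lists pseudogenes named after 28 of the 42 members, as many as 18 for COX6C, and the probe sequences were not used here, so signal from such copies could not be separated.

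The complexes were compared on each array by the median of their genes' deviations from each gene's own mean over the 6 arrays, which sets no probe's level against another's. Complex I stood at -0.01, -0.08 and -0.05 in GFP cells and 0.09, -0.01 and 0.01 in GRK3 cells. Complex III stood at -0.05, -0.01 and -0.06, and then 0.11, -0.03 and 0.01. Complex IV stood at -0.04, -0.02 and -0.06, and then 0.09, 0.03 and 0.02. In these 3 complexes GRK3 replicate 1 was the highest array, and in complex III the groups overlapped.

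The median of the 5 complex V members, at -0.02, -0.03 and 0.01 in GFP cells and 0.07, 0.01 and 0.01 in GRK3 cells, varied least between arrays. Further complex V subunits, among them ATP5MG and ATP5MJ, were read with the other subunits and are not in this median. Complex II stood at -0.05, 0.05 and -0.12 in GFP cells and 0.05, 0.04 and 0.16 in GRK3 cells, and there GRK3 replicate 3 was the highest array for each of the 3 genes. Complex II holds only 3 measured genes, and the differences between complexes were not tested. The median deviation of all tested probes lay between -0.0049 and 0.0056 on each of the 6 arrays. Quantile normalization gives every array the same distribution of values and so holds this median near 0. It is therefore no test of the values of the complexes.

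**Figure D3:**
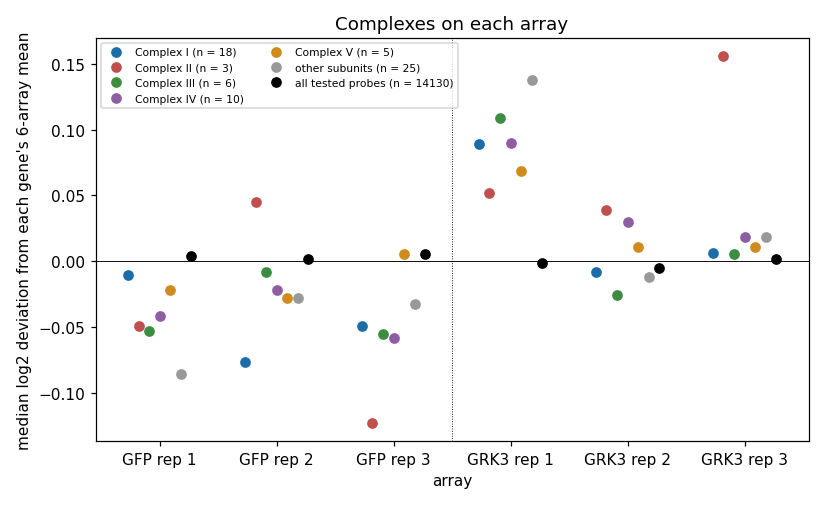
Median log2 deviation of each complex's genes from their own 6-array means (y axis) on each array (x axis), with the other subunit genes and all tested probes for comparison. GRK3 replicate 1 holds the highest value of complexes I, III, IV and V. All tested probes stay near 0 on each array, where quantile normalization holds them.

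The wider range within a group exceeded the difference for 39 of 42 members (92.9%), near the 90.4% of all probes. UQCRH of complex III, COX6B1 and COX7B of complex IV, ATP5F1C of complex V and NDUFS5 of complex I all had their highest value on GRK3 replicate 1 and their lowest on GRK3 replicate 3. For UQCRH these arrays deviated by 0.13 and -0.25 from the gene's mean, for COX7B by 0.20 and -0.16 and for ATP5F1C by 0.19 and -0.17. These 5 of 42 members (11.9%, against 4.18% of all probes) are all that had this pattern, and they were singled out after their values were seen. In each of the 5, GFP replicate 1 was also the lowest of the GFP arrays. Before normalization, GRK3 replicate 3 and GFP replicate 1 had the lowest mean signals of all arrays (1171 and 1215 intensity units). The part of this in the pattern was not tested. ATP5F1A ran the opposite way, lowest on GRK3 replicate 1 and highest on GRK3 replicate 3. Over the members, 34 of 42 lay above their own mean on GRK3 replicate 1, against 23 on replicate 2, 24 on replicate 3, and 17, 14 and 13 on GFP replicates 1, 2 and 3.

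**Figure D4:**
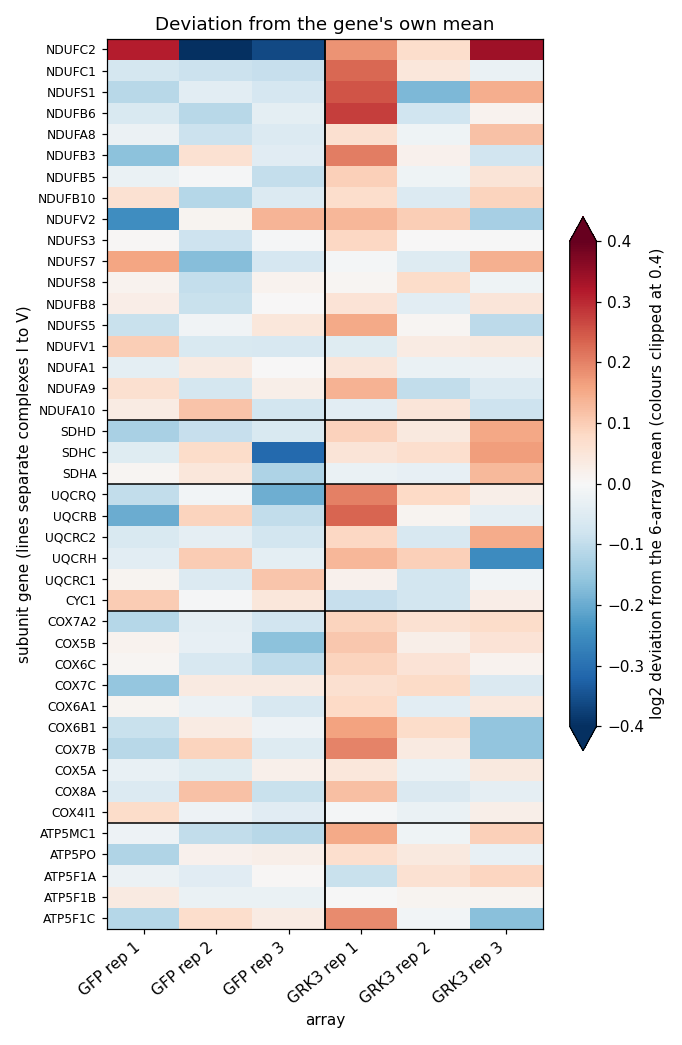
Log2 deviation of each of the 42 members (rows, grouped from complex I at the top to complex V) from its own mean over the 6 arrays (columns), red for above and blue for below. The GRK3 replicate 1 column is above the mean for 34 of 42 genes, and GRK3 replicate 3 holds both high and low values.

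The other genes of the pathway were read from fixed lists, and 0 of their tested genes passed in either direction with limma. Of 25 tested subunit genes outside the list of members, 24 had a difference above 0, with a median of 0.12, 2 had an unadjusted p under 0.05 (against 11.6% of all probes), and the groups did not overlap for 7, all with GRK3 above (against 8% of all probes). The median was 0.06 without GRK3 replicate 1 and also without GFP replicate 1, and 0.07 with array weights. The largest differences were in accessory subunits of complex I, NDUFA5 at 0.42 ± 0.14 (SE) and NDUFA7 at 0.24 ± 0.09 (SE), with limma adjusted p-values of 0.264 and 0.299. The signal of NDUFA5 was low, with a detection p of up to 0.0194. GRK3 replicate 1 was the highest GRK3 array for 20 of these 25 genes. Of the subunit isoforms and relatives, 2 of 9 were tested: COX7B2 differed by 0.27 and ATP5IF1, the inhibitor of ATP synthase hydrolysis, by 0.17 (limma adjusted p = 0.386 and 0.666). Leaving out GRK3 replicate 1 brought ATP5IF1 to 0.052, and leaving out GRK3 replicate 3 brought it to 0.275.

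Of 43 tested assembly factors, 23 lay above 0 with a median of 0.03, and 3 had an unadjusted p under 0.05 (against 11.6% of all probes). The largest differences were 0.29 for COX18 and 0.27 for COX14, both assembly factors of complex IV (limma adjusted p = 0.21 and 0.462). The signal of COX18 was low, with a detection p of up to 0.0259. Of 16 genes of the tricarboxylic acid cycle and pyruvate dehydrogenase, 7 lay above 0 with a median of -0.02 and 0 with an unadjusted p under 0.05. In that list IDH2, the mitochondrial NADP-dependent isocitrate dehydrogenase, differed by 0.21 and OGDH by -0.17 (limma adjusted p = 0.453 and 0.693). Of 14 electron and membrane carriers, 5 lay above 0 with a median of -0.02 and 1 had an unadjusted p under 0.05. The outer-membrane channel genes VDAC2 and VDAC1 differed by 0.46 and -0.17 (limma adjusted p = 0.257 and 0.633). VDAC2 too had a low signal, with a detection p of up to 0.0194.

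Among 13 tested regulators of mitochondrial biogenesis, 5 lay above 0, the median was -0.02 and 1, ESRRG, had an unadjusted p under 0.05. ESRRG, an orphan nuclear receptor that activates respiratory genes, had values of 6.53, 6.59 and 6.52 in GFP cells and 6.88, 7.34 and 7.35 in GRK3 cells. All GRK3 arrays lay above the GFP arrays, at low signal. The difference was 0.64 ± 0.13 (SE), with a limma adjusted p of 0.0724, which was 0.00397 without GRK3 replicate 1. GABPB1, a GABP subunit, differed by -0.19 (limma adjusted p = 0.627). For TFAM, the mitochondrial transcription factor, the difference was 0.04 (limma adjusted p = 0.941). For the factor NRF1 it was 0.07 (limma adjusted p = 0.913). However, the NRF1 probe lay near background, detected on 3 of the 6 arrays with a detection p of up to 0.117. Whether NRF1 expression changed could therefore not be judged from it.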

How the data were processed

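Expression was measured on 6 Illumina arrays, 3 of PC3 cells with GFP and 3 with GRK3. The deposited table gives, per the file headers, a non-normalized average intensity and a detection p-value for each of 24526 probes and array. The values of the authors' value table, also linear intensity, equal these times 1 factor per array (0.931 to 1.10), and were used only as an alternative; their column medians lie between 131.6 and 140.7, and the scaling method, array software and slides were not stated in the labels or headers. Intensities were background-corrected with detection p-values, quantile-normalized and log2-transformed by neqc (offset 16, limma 3.58.1, R 4.3.3). The 14130 probes detected on at least 3 arrays were tested with lmFit and eBayes, two-sided, with Benjamini-Hochberg adjustment over all of them and a threshold of 0.05. The fit was tested on simulated data whose changes were larger than any difference of the members. That run does not show whether changes as small as theirs would be called. Probes were named from the platform annotation, and symbols were checked through Entrez identifiers in RefSeq (21813 found, 0 changed). Of the probes, 21834 have 1 gene symbol and 2692 none. A gene stands by its tested probe with the highest mean. Values on each array are given for the 3 members per complex with the largest absolute difference, and of related lists the 2 largest are named, TFAM and NRF1 being chosen after their values were seen. The NRF1 motif was shortened by its last letter, and the interval bounds of 1.3-fold and 1.2-fold were set, after the values were seen. Members and lists were chosen with earlier results of these data known. The number of arrays limits the precision. Same-numbered arrays of the groups had correlations of their deviations from the group means of -0.407, 0.178 and -0.415, so numbers were not taken as pairs. Across numbers, GFP replicate 3 correlated with GRK3 replicate 1 at 0.514 and GFP replicate 1 with GRK3 replicate 3 at 0.434. The remaining pairs lay between -0.206 and 0.0437, and the cause was not tested. Alternatives were another background correction, offset, scaling, detection filter, variance model, array weights, replicate block, probe rule, the authors' table and each array left out.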

Additional observations from a re-analysis of the deposited data

How the results depend on the processing

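No member passed in any of the 17 alternatives run, higher or lower, and between 30 and 38 of 42 members had a difference above 0 in each. The limits are 3 arrays per group, small differences and brightest probes near the top signal. Slide as a block was not run because the files name no slide.

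Under median scaling the median difference was 0.12 over the members, 0.12 for complex I, 0.12 for complex IV and 0.11 for complex V, while that of all probes was 0.0016. With 1 array left out, the medians ran from 0.037 to 0.080 for the members, from 0.036 to 0.082 for complex I, from 0.083 to 0.204 for complex II, from -0.0039 to 0.088 for complex III, from 0.025 to 0.111 for complex IV and from 0.020 to 0.080 for complex V. For complex III the value of -0.0039 came without GRK3 replicate 1. For complex II the 0.083 came without GFP replicate 3. For all probes the median was -0.029 with the authors' value table and -0.0030 with no detection filter, and with 1 array left out it ran from -0.0093 to -0.0048.

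Members with an unadjusted p under 0.05 numbered 2 with no background correction, 2 with an offset of 50, 3 with median scaling, 4 with no detection filter, 4 with an intensity trend, 0 with the replicate block and 0 to 2 with 1 array left out. SDHA differed by -0.0030 without GFP replicate 3 and by -0.0072 without GRK3 replicate 3, in a range up to 0.081 with 1 array left out. In the related lists, the median of subunit isoforms and relatives was 0.032 with no detection filter, where more of them are tested. With 1 array left out the medians ran from -0.052 to 0.064 for regulators of biogenesis, from -0.030 to 0.021 for the tricarboxylic acid cycle and from -0.078 to 0.062 for carriers. ESRRG, the 1 regulator to pass in any alternative, passed with array weights (difference 0.71, limma adjusted p = 0.0153) and among the runs with 1 array left out without GRK3 replicate 1 (difference 0.80), so the count of regulators past the threshold was 1 there and 0 to 1 over those runs. Over all alternatives its adjusted p ran from 0.00397 to 0.244.

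Over all probes, 53 were higher and 28 lower. These counts were 86 and 48 with no background correction, 78 and 44 with an offset of 50, 57 and 55 with the authors' value table, 14 and 9 with no detection filter, 89 and 47 with an intensity trend, 161 and 78 with array weights, and 4 and 7 with the replicate block. With 1 array left out they ran from 14 to 133 and from 9 to 57, the highest without GRK3 replicate 1. Of the same-numbered arrays, only those of replicate 2 correlated best with each other, and the replicate block changed no call of a member. The causes of these changes were not tested.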
